A study of Mus musculus with 24 samples.

Results

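A set of 10 genes known as direct transcriptional targets or feedback regulators of canonical Wnt signalling were followed across mouse epiblast stem cells (EpiSCs), mouse embryonic stem cells (mESCs) and early embryonic tissue. They were Axin2, Sp5, Sp8, Nkd1, Lgr5, Lef1, Tcf7, Ascl2, Notum and Rnf43, listed by name for their known roles, and every array probe that carried one of these names was taken. The list was made with earlier results of these data known. The shares of its probes called below therefore describe the set and do not test it. The set held 14 probes for 10 genes, out of 27235 named probes for 20660 genes on the array. Axin2, Sp8, Nkd1 and Tcf7 had 2 probes each and the other 6 genes had 1.

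In canonical Wnt signalling a secreted Wnt ligand binds Frizzled and Lrp receptors, β-catenin escapes degradation by the Axin, Apc and Gsk3 complex, and it enters the nucleus to act with transcription factors of the TCF/LEF family. Several of the genes switched on in this way act back on the pathway: Axin2 is a scaffold of the degradation complex, Nkd1 binds Dishevelled, Notum is a secreted enzyme that inactivates Wnt ligands, and Rnf43 is a ubiquitin ligase that removes Frizzled from the cell surface. Sp5 and Sp8 are zinc finger transcription factors, Ascl2 is a bHLH transcription factor, Lgr5 is a receptor for R-spondins, and Lef1 and Tcf7 are TCF/LEF factors themselves. In the embryo the pathway is known for its part in forming the primitive streak from the epiblast.

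Gene expression was measured on 24 single-colour arrays, 2 for each of 12 groups. Among the EpiSCs, pluripotent lines derived from the post-implantation epiblast, line 129C1 was measured after treatment with IWP2, an inhibitor of Porcupine that blocks the secretion of Wnt ligands. Lines 129Ba1, 129Ba2 and BNa17 had been derived in the presence of a Wnt inhibitor that the labels do not name, and lines Wt1 and 129C1 (untreated) had been derived by the original protocol. EpiSCs grew in conventional medium or with a Wnt signalling inhibitor, and the labels do not say whether the lines derived with one were still kept in it. Tissue dissected from embryos was the epiblast at E5.5, the epiblast at E6.5 and the embryonic ectoderm at E7.5. The mESCs were line J1 in 2i, a medium with inhibitors of Mek and Gsk3, and lines R1 and J1 in conventional medium. All stem cells were kept on feeder layers and separated from them before RNA extraction, and no genotype, allele or strain is given for any group. The labels do not say whether the 2 arrays of a group come from separate cultures or dissections, so p-values measure the spread between these arrays or lines, which may be technical.

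Levels are log2 processed signals minus the 75th percentile of the array's probes, so that 0 is the level of that percentile and a step of 1 is a doubling. The feature extraction software called 36.7% to 53.2% of probes well above background, the measure of depth used here. Readings that were not well above background are printed as measured and said to be so. A difference with a whole side below background is given as a bound, one with both sides below as no level, and one with some arrays of a side below rests partly on background readings. The number of arrays limits the precision. BNa17 replicate 1 was the dimmest array, with a 75th percentile signal of 69.3 against up to 253 on the others, and the lowest share above background. In bulk RNA, fewer cells that express a gene and less RNA per cell cannot be told apart.

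Marker genes set the context for what follows. The 6 naive pluripotency markers summed to 378 to 791 times the 75th percentile signal in the mESC groups and to at most 4.45 in the EpiSC groups, and the 3 core pluripotency markers, Pou5f1, Sox2 and Nanog, were well above background in every group. The 8 fibroblast markers, chosen for feeder cells, summed to between 65.0 and 421 in the cultured cells and to between 6.04 and 14.6 in embryonic tissue. The 7 visceral endoderm markers summed to 6.75 on the one and 77.1 on the other array of E5.5 epiblast, to 16.1 to 25.1 at E6.5 and to at most 1.84 in E7.5 ectoderm. The part of feeder or visceral endoderm RNA in the results below was not tested. The arrays lay on 6 slides. IWP2-treated 129C1 shared a slide with Wt1, untreated 129C1 with the 3 Wnt inhibitor lines, E5.5 with E6.5, and E7.5 with conventional J1, while R1 and J1 in 2i each had a slide to themselves.

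Of the 10 genes, 8 had a promoter in the RefSeq table for GRCm38.p6, 15 promoters in all, each running from 250 bases before to 50 after a start site. Lgr5 and Notum are named only. The TCF/LEF motif was searched on both strands as CTTTGNN, where each N was A or T. Sp5, the member with the widest range of levels here, held 2 matches that do not overlap, whereas 16.9% of the 32851 promoters in the table held at least 1 and 1.94% held 2 or more. Of the 15 member promoters, 3 held at least 1, those being of Sp5, Sp8 and Lef1. A link between matches and levels was not tested. The 3 promoters below are shown because Sp5 and one Axin2 probe had the most similar patterns of any 2 different genes in the set, and Sp8 often moved differently from Sp5. Capitals mark the matches.
Sp5, chr2:70474673-70474972, + strand: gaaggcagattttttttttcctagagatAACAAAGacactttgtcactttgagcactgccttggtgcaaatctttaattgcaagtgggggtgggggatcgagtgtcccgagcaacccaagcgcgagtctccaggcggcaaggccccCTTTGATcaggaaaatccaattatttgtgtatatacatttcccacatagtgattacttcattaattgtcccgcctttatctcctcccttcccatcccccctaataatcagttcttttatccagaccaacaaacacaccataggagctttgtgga
Axin2, chr11:108920099-108920398, + strand: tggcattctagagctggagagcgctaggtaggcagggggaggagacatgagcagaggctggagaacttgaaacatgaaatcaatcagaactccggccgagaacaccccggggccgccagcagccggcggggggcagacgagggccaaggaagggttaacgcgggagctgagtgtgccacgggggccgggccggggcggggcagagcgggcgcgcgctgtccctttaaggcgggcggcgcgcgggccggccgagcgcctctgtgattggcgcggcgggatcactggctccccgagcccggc
Sp8, chr12:118846983-118847282, + strand: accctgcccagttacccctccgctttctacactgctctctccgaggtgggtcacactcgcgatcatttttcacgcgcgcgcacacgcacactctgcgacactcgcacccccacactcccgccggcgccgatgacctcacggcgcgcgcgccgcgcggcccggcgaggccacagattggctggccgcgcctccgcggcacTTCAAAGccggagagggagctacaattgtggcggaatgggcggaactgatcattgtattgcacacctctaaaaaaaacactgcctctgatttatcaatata
The Sp5 matches began at -222 and -104 from the start site. The single match in this Sp8 promoter began at -51, and the other 2 Sp8 promoters held none. One of 4 Lef1 promoters held a match at -147. The windows of Axin2, Nkd1, Tcf7, Ascl2 and Rnf43 held none of these letters.

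Sp5, whose level spanned 9.58 on the log2 scale between the lowest and the highest group, was the member that varied most. Its levels were -5.38 and -4.65 in IWP2-treated 129C1, -5.06 and -6.19 in 129Ba1, -5.69 and -5.62 in 129Ba2, and -4.27 and -5.90 in BNa17, against 3.12 and 2.83 in Wt1 and 0.21 and -0.39 in untreated 129C1. None of the 8 arrays of the first 4 groups was well above background, and all 4 arrays of the original-protocol lines were. In the embryo Sp5 was at -1.99 and -0.48 at E5.5, 3.86 and 3.97 at E6.5, and 3.69 and 4.15 at E7.5. Epiblast of E6.5 and ectoderm of E7.5 were the highest groups of all 12, and their arrays overlapped. In mESCs the levels were 0.60 and 0.54 in J1 with 2i, 1.37 and 1.15 in R1, and 1.79 and 1.86 in J1.

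The Lgr5 receptor was detected in 4 groups. Its levels were -1.45 and -0.70 in Wt1, -0.25 and -0.76 in untreated 129C1, -1.77 and -1.60 at E6.5 and -1.01 and -1.95 at E7.5, so that the ranges of Wt1 and 129C1, and of E6.5 and E7.5, overlapped. The other 16 arrays, among them those of IWP2-treated 129C1, all Wnt inhibitor lines, E5.5 epiblast and every mESC group, were not well above background.

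Ascl2 was above background on all 24 arrays. Its levels were 0.74 and 0.46 in IWP2-treated 129C1, -0.35 and 0.21 in 129Ba1, 0.42 and 0.29 in 129Ba2 and -0.07 and -0.39 in BNa17, against 2.25 and 2.06 in Wt1 and 2.47 and 2.59 in untreated 129C1. Every array of the first 4 groups lay below every array of the last 2. In the embryo each stage lay below the one before, with 2.67 and 2.19 at E5.5, 0.90 and 1.06 at E6.5 and 0.24 and 0.28 at E7.5. In mESCs it was at 1.41 and 1.91 in J1 with 2i, 1.02 and 1.20 in R1 and 1.78 and 1.20 in J1, so that J1 overlapped both other groups and these did not overlap each other.

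Sp8 probe A_66_P138898 had another pattern. It was at 0.54 and 0.29 in IWP2-treated 129C1, 0.43 and 0.76 in 129Ba1, 0.97 and 1.35 in 129Ba2 and 1.65 and 1.56 in BNa17, against 0.91 and 0.71 in Wt1 and -1.18 and -2.51 in untreated 129C1. Untreated 129C1 alone stood below the other EpiSC groups, and its 2 arrays differed by more than those of any other group on this probe. Levels were -0.73 and -0.90 at E5.5, 1.48 and 1.42 at E6.5 and 3.40 and 3.64 at E7.5, with no overlap between stages. In mESCs the probe was at -5.02 and -5.59 in J1 with 2i, not well above background, at -2.66 and -2.36 in R1 and at -2.31 and -2.37 in J1. The second Sp8 probe, A_55_P2083806, ranged over 2.34 between groups, and its 2 arrays at E5.5 read -0.14 and -2.50. Over the 12 group means the 2 Sp8 probes had a Pearson r of 0.36.

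**Figure D1:**
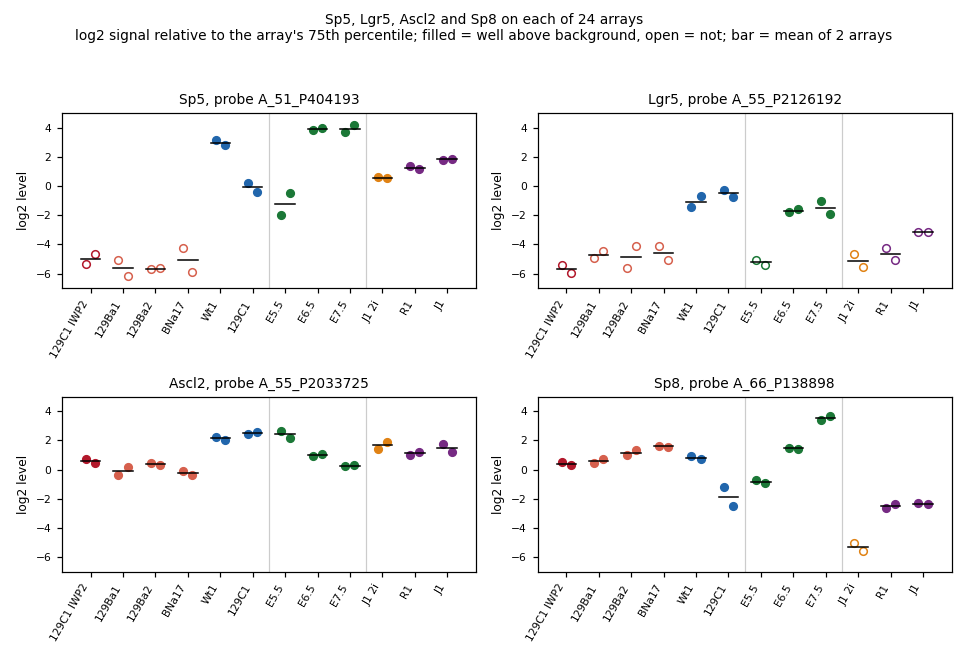
Levels of Sp5, Lgr5, Ascl2 and Sp8 (probe A_66_P138898) on each of the 24 arrays, as log2 signal relative to the array's 75th percentile (vertical axis), by group (horizontal axis: EpiSCs, embryonic tissue and mESCs, separated by grey lines). Filled points are well above background, open points are not, and bars are means of 2 arrays; Sp5 and Lgr5 are open in IWP2-treated 129C1 and the 3 Wnt inhibitor lines, where Ascl2 is low and Sp8 is between 0.29 and 1.65.

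Axin2 is often used as a general readout of the pathway, and its 2 probes gave different pictures. Probe A_55_P2000783 was at -1.76 and -1.98 in Wt1, while untreated 129C1, IWP2-treated 129C1 and the 3 Wnt inhibitor lines were not well above background. It was at -1.10 and -2.00 at E5.5, 0.48 and 0.05 at E6.5 and 0.41 and 0.54 at E7.5. In mESCs it was at -3.33 and -2.58 in J1 with 2i and -2.68 and -3.05 in R1, with 1 of 2 arrays above background in each, and at -1.99 and -2.34 in J1.

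Probe A_66_P134405 of Axin2 was above background in both original-protocol lines, at -2.34 and -1.76 in Wt1 and -3.15 on both arrays of 129C1, and also in IWP2-treated 129C1, at -2.52 and -3.19. Its levels were -2.82 and -2.69 at E5.5, -2.79 and -2.84 at E6.5 and -1.33 and -1.71 at E7.5. It was at -2.49 and -1.68 in J1 with 2i and was not well above background in R1 or J1. The first probe was thus higher at E6.5 than at E5.5 with no overlap, which the second was not, and the second separated 2i from conventional medium. Their Pearson r over the 12 group means was 0.53, and both were above background on both arrays in 4 groups. The pattern of the first probe was close to that of Sp5 (r = 0.88), with both above background on both arrays in 5 of the 12 groups.

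Of the Nkd1 probes, A_55_P1967736 was above background on 23 arrays. It was highest at E7.5, at 2.25 and 2.57, followed by E6.5 at 1.25 and 1.43 and Wt1 at 0.93 and 0.86, with no overlap among these 3 groups. All other arrays lay at or below -0.55, and J1 in 2i was lowest at -3.09 and -3.08. The second probe, A_55_P2118694, was above background on both arrays in Wt1 (-2.67 and -2.54) and at E7.5 (-2.37 and -2.40), and on 1 array of IWP2-treated 129C1. The r between the 2 probes was 0.73.

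**Figure D2:**
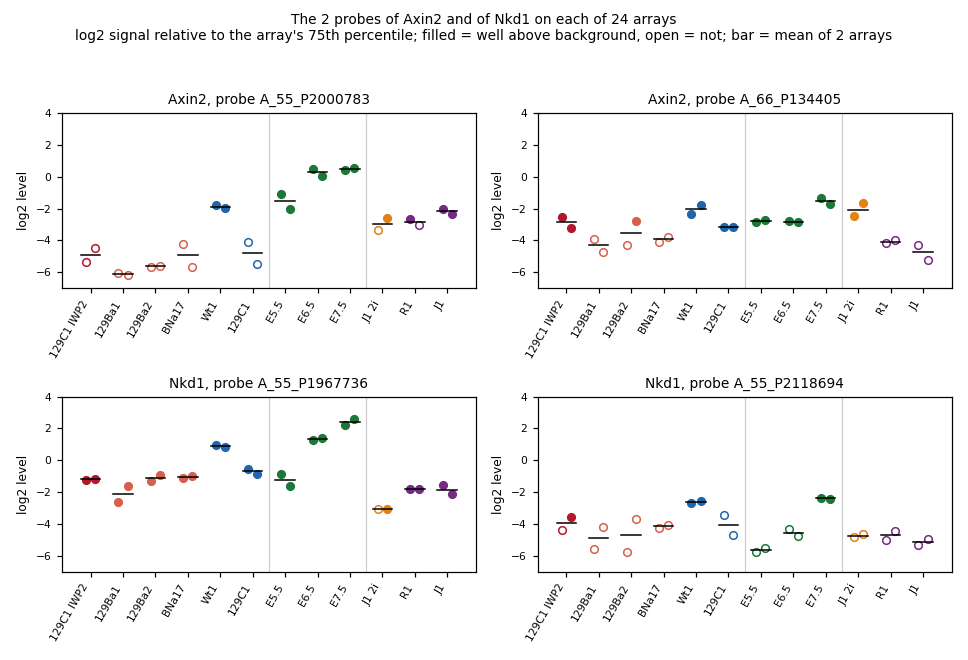
Levels of the 2 probes of Axin2 (top) and of Nkd1 (bottom) on each of the 24 arrays, as log2 signal relative to the array's 75th percentile, by group. Filled points are well above background, open points are not, bars are means of 2 arrays; the left Axin2 probe reads 0.05 to 0.54 at E6.5 and E7.5, and the right one is filled for J1 in 2i and open for R1 and J1.

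The remaining members varied less. Notum was above background on all arrays and its group means spanned 1.25, from 2.40 in 129C1 to 3.66 in J1 with 2i, the narrowest range in the set. Tcf7 probe A_52_P244702 spanned 1.49, with every mESC array at or below 0.27 and every EpiSC and embryo array at or above 0.63. Its second probe, A_55_P2109633, was above background in EpiSCs and the embryo, other than 1 array of Wt1, and in no mESC array.

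Lef1 spanned 2.57. It was at 0.64 and 0.14 in IWP2-treated 129C1, 1.84 and 1.66 in 129Ba1, 0.73 and 0.63 in 129Ba2 and -0.39 and 0.39 in BNa17, against 1.59 and 1.70 in Wt1 and 0.47 and 0.54 in untreated 129C1, so that the lines did not sort by how they were derived. It was at 1.53 to 2.20 in the embryo, at -0.52 and -0.45 in J1 with 2i, at 0.94 and 0.92 in R1 and at 0.78 and 1.01 in J1. Rnf43 was at -1.54 and -1.33 in IWP2-treated 129C1, -3.69 and -3.29 in 129Ba1 and -2.78 and -2.19 in 129Ba2, against -1.95 and -2.39 in Wt1 and -1.64 and -1.58 in untreated 129C1. The ranges of treated and untreated 129C1 lay close together without overlapping, 129Ba1 lay below both original-protocol lines, and 129Ba2 overlapped Wt1. It was at -3.99 and -3.36 at E6.5 and -2.48 and -2.58 at E7.5. It was not well above background at E5.5, in any mESC array or on BNa17 replicate 1, and BNa17 replicate 2 read -2.09.

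**Figure D3:**
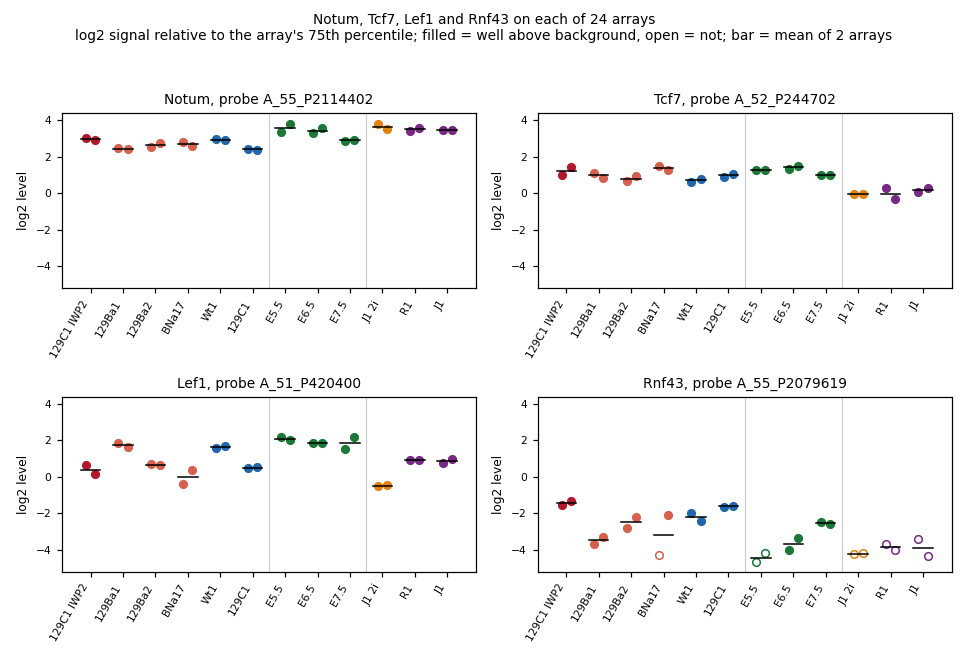
Levels of Notum, Tcf7 (probe A_52_P244702), Lef1 and Rnf43 on each of the 24 arrays, as log2 signal relative to the array's 75th percentile, by group. Filled points are well above background, open points are not, bars are means of 2 arrays; the group means of Notum lie between 2.40 and 3.66.

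In lines derived with a Wnt inhibitor, set against lines derived by the original protocol, Sp5, Lgr5 and Ascl2 were lower and no member was higher. Sp5 was at least 33.5-fold lower (adjusted p = 0.0383) and for Lgr5 the bound was 7.12-fold (adjusted p = 0.00633), both being bounds because no Wnt inhibitor array was above background. The adjusted p-values given with bounds are those of the fits to the levels as measured. Over the alternatives the fitted differences ranged from -8.44 to -3.04 for Sp5 and from -4.22 to -1.14 for Lgr5. The bounds therefore hold for the main processing only. Ascl2 fell by 2.32 ± 0.27 on the log2 scale (SE; adjusted p = 0.0296). A difference was called at a limma adjusted p below 0.05 and at least 2-fold, with line means as the replicates (3 lines against 2). The 3 called probes were 3 of 14, against 0.879% of the 27643 probes tested. The median difference over the 14 member probes was -1.21 as fitted and -0.28 with 4 of them at their bound, and 0.00 over all probes.

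The other 11 probes did not pass. Axin2 A_66_P134405 (-1.33 ± 0.41, with 1 of 6 Wnt inhibitor arrays above background), Nkd1 A_55_P1967736 (-1.52 ± 0.56), Rnf43 (-1.16 ± 0.37), and the other probes of Axin2 (at least 1.22-fold lower) and Nkd1 (at least 1.19-fold lower) had unadjusted p-values between 0.0179 and 0.0431, and adjusted p-values of 0.219 to 0.297. Notum (-0.07 ± 0.25), Tcf7 A_52_P244702 (0.21 ± 0.26) and Lef1 (-0.26 ± 0.59) had differences near 0. The 2 original-protocol lines were far apart themselves, and the set against which the inhibitor lines are placed decides several calls. Against 129C1 alone, which shares their slide, Sp8 A_66_P138898 was higher by 2.96 (adjusted p = 2.64e-06, arrays as replicates), and Axin2 A_55_P2000783 had no level on either side. Against Wt1 alone, on another slide and also with arrays as replicates, Sp8 was at 0.31 (adjusted p = 0.431). Axin2 A_55_P2000783 was then at least 3.37-fold lower (adjusted p = 9.58e-06). Sp5, Lgr5 and Ascl2 were called lower against either line, with adjusted p-values of at most 1.49e-05 in these fits of arrays.

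Few other genes of the pathway were called. Of 24 further Wnt targets, 18 were tested, and Dkk1, a secreted Wnt antagonist, was called, at least 47.4-fold lower. Of 48 genes for ligands, receptors, secretion and extracellular modulators, 35 were tested, and Porcn, the acyltransferase that lipidates Wnt ligands, was called lower, at -1.65 ± 0.21 on the log2 scale. None of 29 tested intracellular components, such as β-catenin partners and the degradation complex, was called by limma, with 2 of 29 at an unadjusted p below 0.05, and their median difference was 0.10. Markers of primitive streak and definitive endoderm moved with Sp5 and Lgr5: the 8 streak and mesoderm markers summed to 5.86 to 10.9 in the Wnt inhibitor lines and 37.3 to 74.5 in the original-protocol lines, with 3 of 7 tested lower. All 5 definitive endoderm markers were lower, summing to 0.181 to 0.411 in the Wnt inhibitor lines and 36.3 to 97.4 in the original-protocol lines. Their part in the member results was not tested. Leaving out 129Ba1, 129Ba2 or BNa17 ended the calls of Sp5 (adjusted p 0.133 to 0.158) and Ascl2 (differences of -2.49 to -2.20, adjusted p 0.0851 to 0.123), as did leaving out BNa17 replicate 2 (0.0664 and 0.0592). Sp5 also missed without 129C1 replicate 1 (0.0518) and under quantile normalization (0.057), while Lgr5 was called in all 26 alternatives.

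In line 129C1 treated with IWP2, Sp5, Lgr5 and Ascl2 were lower and 1 of the 2 Sp8 probes was higher than in the untreated line. Sp5 was at least 11.4-fold lower in IWP2-treated than in untreated 129C1 (adjusted p = 5e-05), for Lgr5 the bound was 8.55-fold (adjusted p = 2.43e-05), and Ascl2 differed by -1.93 ± 0.25 (adjusted p = 0.000322). Over the alternatives the smallest fitted differences were -1.72 for Sp5 and -1.40 for Lgr5, less than these bounds. Sp8 A_66_P138898 was higher by 2.26 ± 0.32 (adjusted p = 0.000825). These 4 of 14 probes compare with 2.43% of the 31658 probes tested, in a fit of all 24 arrays. Untreated 129C1 is in this comparison and in the one before, so the 2 share arrays.

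Axin2 was not called by either probe. Probe A_55_P2000783 had no level on either side, since untreated 129C1 was already not above background, and A_66_P134405 differed by 0.30 ± 0.45 (adjusted p = 0.845). Nkd1 A_55_P1967736 differed by -0.49 ± 0.30 (adjusted p = 0.505), Lef1 by -0.12 ± 0.25 and Rnf43 by 0.17 ± 0.51. Notum was 0.57 ± 0.17 higher with an adjusted p of 0.104. The second Sp8 probe, A_55_P2083806, differed by 0.69 ± 0.53 (limma adjusted p = 0.614). The treated arrays lay on a slide with Wt1 and the untreated ones on another, so an effect of the slide and one of IWP2 cannot be told apart. Set against Wt1 on the same slide, IWP2-treated 129C1 had lower Sp5 (at least 95.5-fold), Lgr5 (at least 5.75-fold) and Ascl2 (-1.55), and Sp8 at -0.40 (adjusted p = 0.475), the opposite sign.

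Of 21 tested further targets, 3 were lower with IWP2, namely Dkk1 (at least 32.9-fold), T, the streak transcription factor Brachyury (at least 9.61-fold), and Tnfrsf19 (-2.41 ± 0.25), and Apcdd1, a Wnt antagonist, was higher (at least 3.13-fold). Tnfrsf19 and Apcdd1 were each above background on only 1 treated array, and Apcdd1 on no untreated one. Among 39 tested ligand and receptor genes 5 were lower, among them the antagonist Sfrp5 (-6.08 ± 0.72), Wnt3 (at least 5.30-fold) and Ror2 (-2.35 ± 0.23), and none was higher. None of the 29 intracellular components was called by limma, with 5 of them at an unadjusted p below 0.05. Streak and mesoderm markers summed to 2.903 to 3.147 in IWP2-treated and 37.3 to 43.1 in untreated 129C1, with 5 of 8 lower, and their part in the member results was not tested. T is in this list and in that of further targets, so these counts are not separate. Definitive endoderm markers summed to 0.195 to 0.278 in IWP2-treated and 81.8 to 97.4 in untreated 129C1, with 5 of 5 lower. The fibroblast markers summed to 71.0 to 116 in IWP2-treated and 84.4 to 95.7 in untreated 129C1, with 0 of 8 called in the limma fit and 1 at an unadjusted p below 0.05. When only the 4 arrays compared were fitted, Ascl2 (adjusted p = 0.0571) and Sp8 (adjusted p = 0.157) no longer passed.

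The original-protocol lines differed from each other in 5 members, all higher in Wt1 than in 129C1, while Lgr5 and Ascl2 did not pass. Axin2 A_55_P2000783 was at least 4.58-fold higher (adjusted p = 0.000949), Sp5 higher by 3.07 ± 0.52 (adjusted p = 0.00107), Sp8 A_66_P138898 by 2.66 ± 0.32 (adjusted p = 5.62e-05), Nkd1 A_55_P1967736 by 1.59 ± 0.30 (adjusted p = 0.00265) and Lef1 by 1.14 ± 0.25 (adjusted p = 0.00726). The share of all probes called was 8.28%. Lgr5 differed by -0.57 ± 0.50 and Ascl2 by -0.38 ± 0.25. Of the further targets 7 of 21 were higher, among them T (3.02 ± 0.65), Tnfrsf19 (2.80 ± 0.25) and Fst, an activin antagonist (2.57 ± 0.34), and none was lower. Of the ligand and receptor genes 9 of 39 were higher and 2 lower, the ligands Wnt8a (4.02 ± 0.70) and Wnt5a (2.46 ± 0.49) being among the higher and the antagonists Sfrp4 (-5.64 ± 0.58) and Sfrp5 (-4.01 ± 0.72) being the lower pair. Fibroblast markers summed to 185 to 263 in Wt1 and 84.4 to 95.7 in 129C1, with 5 of 8 higher, and their part was not tested. The lines lay on different slides, so line and slide cannot be told apart. Fitting only the 4 arrays compared ended the calls of Axin2 A_55_P2000783 (adjusted p = 0.0682), which normexp also ended, and of Sp8 (adjusted p = 0.0741), and leaving out 129C1 replicate 1 ended that of Lef1 (adjusted p = 0.0548).

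**Figure D4:**
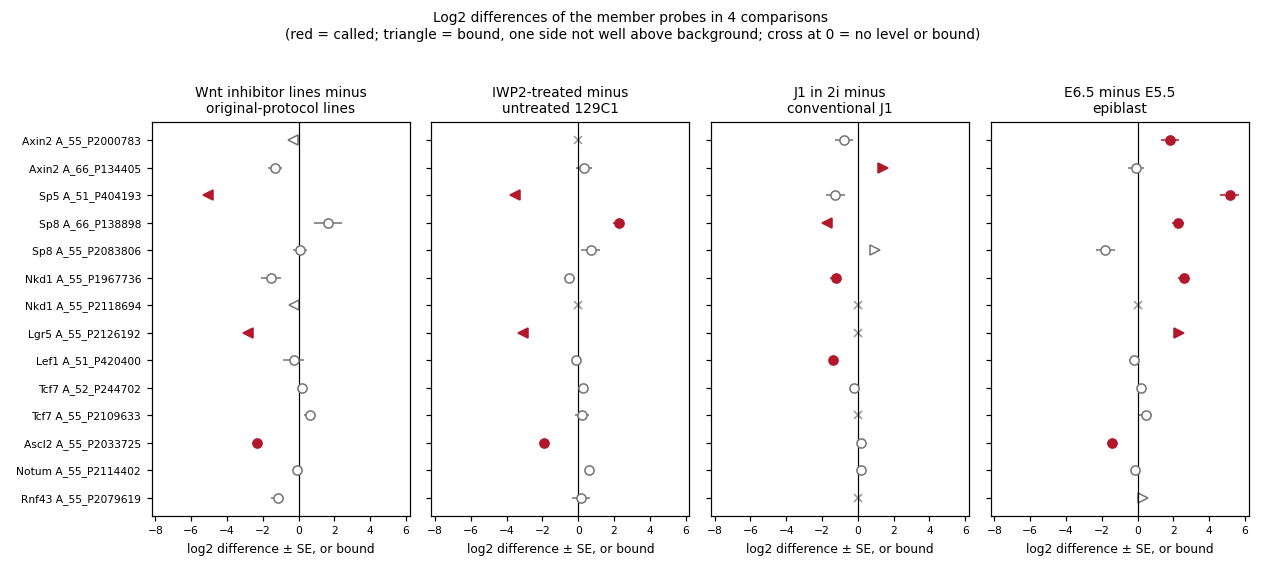
Log2 differences (horizontal axis, circles with standard errors) of the 14 probes (vertical axis) in Wnt inhibitor lines minus original-protocol lines, IWP2-treated minus untreated 129C1, J1 in 2i minus conventional J1, and E6.5 minus E5.5 epiblast. Triangles are bounds where one side was not well above background, crosses at 0 had no level or no bound, and red symbols were called, open ones not; Sp5 is called lower in the first pair of panels and higher in the last one, and Ascl2 is called lower in 3 of the 4.

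Epiblast of E6.5 had higher levels of 5 members than epiblast of E5.5, and a lower level of Ascl2. Sp5 was higher by 5.15 ± 0.52 (adjusted p = 4.97e-05), Nkd1 A_55_P1967736 by 2.58 ± 0.30 (adjusted p = 0.000177), Sp8 A_66_P138898 by 2.27 ± 0.32 (adjusted p = 0.000806) and Axin2 A_55_P2000783 by 1.82 ± 0.49 (adjusted p = 0.0441). Lgr5 was at least 4.97-fold higher (adjusted p = 0.000844). Ascl2 fell by 1.45 ± 0.25 on the log2 scale (adjusted p = 0.00325). The 6 probes called are 6 of 14, against 3.23% of the 31658 probes tested, and the 2 stages shared a slide.

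The second Axin2 probe differed by -0.06 ± 0.45 (adjusted p = 0.978), Lef1 by -0.20 ± 0.25, Tcf7 A_52_P244702 by 0.18 ± 0.20 and Notum by -0.15 ± 0.17. Sp8 A_55_P2083806 went the other way from the first Sp8 probe, at -1.79 ± 0.53 (adjusted p = 0.068), which was -2.97 (adjusted p = 0.000603) without replicate 2 of E5.5, whose level was far below that of replicate 1. Of 21 further targets 8 were higher at E6.5 and none lower, led by T (6.38 ± 0.65) and the streak factor Mixl1 (5.42 ± 1.01). Each of these genes was above background on only 1 array of E5.5. Of 39 ligand and receptor genes 7 were higher and none lower, among them Wnt8a (3.71 ± 0.70), Wnt3 (3.20 ± 0.28) and the receptor Ror2 (1.85 ± 0.23). Streak and mesoderm markers summed to 118 to 123 at E6.5 and 15.4 to 17.3 at E5.5, with 6 of 8 higher. T and Mixl1 are in this list and in that of further targets, so these counts are not separate. Definitive endoderm markers summed to 19.3 to 24.1 at E6.5 and 1.13 to 7.29 at E5.5, with Foxa2 (3.58 ± 0.68) and Gata6 (3.15 ± 0.72) higher of the 5. Trophoblast markers summed to 1.97 to 3.56 at E6.5 and 0.193 to 1.09 at E5.5, with Tfap2c (3.33 ± 0.53), Hand1 (at least 3.32-fold) and Gata3 (at least 3.21-fold) higher of the 6. The part of these cell types in the member results was not tested, and 0 of 7 visceral endoderm markers were called in the limma fit, with 1 at an unadjusted p below 0.05. The Axin2 call ended with all probes tested, with only these 4 arrays, and without replicate 2 of E5.5 or either array of E6.5 (adjusted p 0.0938 to 0.29); in the fit of only these arrays Ascl2 and Nkd1 also missed (0.0838 and 0.0584), and Lgr5 missed under the normexp background correction (adjusted p = 0.0929).

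In E7.5 ectoderm, against E6.5 epiblast, the first Sp8 probe and Nkd1 were higher again while Sp5, Lgr5 and the first Axin2 probe did not pass. Sp8 A_66_P138898 was higher by 2.07 ± 0.32 (adjusted p = 0.000497) and Nkd1 A_55_P1967736 by 1.07 ± 0.30 (adjusted p = 0.019), and the second Nkd1 probe was at least 3.55-fold higher (adjusted p = 0.0133). Axin2 A_66_P134405 was higher by 1.29 ± 0.45 (adjusted p = 0.0461). Sp5 differed by 0.01 ± 0.52, Lgr5 by 0.21 ± 0.50 and Axin2 A_55_P2000783 by 0.21 ± 0.49, and all 3 were above background on all 4 arrays. Ascl2 differed by -0.72 ± 0.25 and Notum by -0.52 ± 0.17, with adjusted p-values of 0.0453 and 0.0405 but under 2-fold. The second Sp8 probe, A_55_P2083806, differed by 1.21 ± 0.53 and was not called (limma adjusted p = 0.103). The 4 of 14 probes called compare with 15.9% of all probes.

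Streak and mesoderm markers ran the other way, with 6 of 8 lower at E7.5, among them Mesp1 (-5.23), Mixl1 (-5.09) and Eomes (-4.48), while T differed by 0.45 (adjusted p = 0.642). Mixl1 and T are in the list of further targets too. Of 21 further targets 5 were higher, led by the caudal-type factors Cdx1 (7.25 ± 0.47) and Cdx2 (5.68 ± 0.94), and 3 were lower. Of 39 ligand and receptor genes 12 were higher, among them Wnt6 (4.50 ± 0.70), Wnt4 (at least 10.9-fold) and the receptor Ror1 (at least 9.13-fold), and 6 lower. All 7 visceral endoderm markers were lower at E7.5. Of 6 trophoblast markers 4 were higher, among them Cdx2, which is also in the list of further targets. Elf5, another of the 6, was at least 8.67-fold lower. The trophoblast sum was 24.01 to 26.31 at E7.5 and 1.97 to 3.56 at E6.5. Stage, tissue and slide differ together here and cannot be told apart. The Axin2 call ended in 9 of 13 alternatives, leaving out each of the 4 arrays included (adjusted p 0.0544 to 0.222 where the p missed), and those of the Nkd1 probes ended when 3 of the 4 arrays, each probe with its own 3, were left out in turn (0.0513 to 0.107), and that of the second probe also under normexp; Sp8 was called in all 14.

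J1 cells in 2i, whose medium contains a Gsk3 inhibitor, had 1 member probe higher and 3 lower than J1 in conventional medium. Axin2 A_66_P134405 was at least 2.60-fold higher (adjusted p = 0.00105). Sp8 A_66_P138898 was at least 3.28-fold lower (adjusted p = 5.08e-05), and lower levels were also called for Nkd1 A_55_P1967736, at -1.25 ± 0.30 (adjusted p = 0.00937; 1 of 2 arrays in 2i above background), and Lef1, at -1.37 ± 0.25 (adjusted p = 0.00178). Sp5 differed by -1.25 ± 0.52 (adjusted p = 0.089) and Axin2 A_55_P2000783 by -0.79 ± 0.49 (adjusted p = 0.25; 1 of 2 arrays in 2i above background). The second Sp8 probe, A_55_P2083806, went the other way from the first. It was at least 1.92-fold higher in 2i and was not called (limma adjusted p = 0.127). Ascl2, Notum and Tcf7 A_52_P244702 differed by 0.17 ± 0.25, 0.20 ± 0.17 and -0.22 ± 0.20. Lgr5, Rnf43 and the second probes of Nkd1 and Tcf7 had no array above background on either side. The background was high, with 14.0% of the 31658 probes called.

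Of 21 further targets 7 were lower in 2i, among them T (at least 47.4-fold), Sox9 (at least 2.66-fold), Fst (-2.22 ± 0.34) and Cd44 (-1.98 ± 0.33). The 2 higher ones, named after their values were seen, were the TCF/LEF factor Tcf7l2 (1.07 ± 0.27) and Znrf3, a relative of Rnf43 (1.03 ± 0.25). Among the ligand and receptor genes 0 of 39 were called higher in the limma fit, with 5 higher at an unadjusted p below 0.05, and 6 were called lower, Wnt8a (at least 14-fold), Wnt3 (at least 4.41-fold) and Wnt5a (at least 6.85-fold) among them. Streak and mesoderm markers, T among them, summed to 1.19 to 1.30 in 2i and 9.78 to 10.7 in conventional J1. Medium and slide cannot be told apart. Against R1, on a slide of its own, the same 4 probes were called in the same direction, with Axin2 A_66_P134405 at least 1.85-fold higher, Sp8 at least 2.92-fold lower, Nkd1 at -1.29 and Lef1 at -1.41. Under the normexp correction only Lef1 among the 4 remained called, and Sp5 was then called lower (-1.06, adjusted p = 0.0056); the Nkd1 call also ended without replicate 1 of J1 or either 2i array (0.0505 to 0.094).

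Between R1 and J1, both in conventional medium, none of the 14 member probes was called by limma, and 1, Lgr5, had an unadjusted p below 0.05 but no array above background. The largest difference among probes with a level was -0.70 ± 0.49, for Axin2 A_55_P2000783, with 1 of 2 arrays of R1 above background. The share of all probes called was 0.597%.

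The 5 EpiSC lines as a group, set against the 2 mESC lines in conventional medium by line means and without the treated arrays, were higher in Sp8 A_66_P138898, by 2.89 ± 0.83 (adjusted p = 0.0327), and in Tcf7 A_55_P2109633, at least 2.53-fold (adjusted p = 0.00685). The other Tcf7 probe was higher by 0.91 ± 0.23 (adjusted p = 0.0199), under 2-fold, and Notum was lower, at -0.86 ± 0.20 (adjusted p = 0.0163), also under 2-fold. Lef1 differed by 0.01 ± 0.48. Sp5 differed by -4.24 with a standard error of 2.39 and 4 of 10 EpiSC arrays above background, since the Wnt inhibitor lines and 129C1 lay below both mESC lines and Wt1 above them. Without Wt1, Sp5 (adjusted p = 0.0342, 2 of 8 EpiSC arrays above background) and Axin2 A_55_P2000783 (at least 2.32-fold, adjusted p = 0.00383) were called lower. The 2 of 14 called are below the 24.1% of all probes. The Sp8 call was lost when Wt1, 129Ba1, 129Ba2 or BNa17, either mESC line, or 129C1 replicate 1 was left out (adjusted p 0.0549 to 0.156), and that of Tcf7 when either mESC line was (0.0549 and 0.0573) and under normexp (0.104).

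Against the embryo, the mean of the EpiSC lines was lower for Axin2 A_55_P2000783 at each stage and for Sp5 and Nkd1 than E6.5 and E7.5. The sizes for Axin2 A_55_P2000783, Nkd1 A_55_P2118694 (2 of 10 EpiSC arrays above background, both of Wt1), Sp5 (4 of 10) and Axin2 A_66_P134405 (5 of 10) rest mostly or partly on background readings. Against E5.5, Axin2 A_55_P2000783 was lower in EpiSC lines, at -3.11 ± 0.91 (adjusted p = 0.0237), Rnf43 was at least 2.66-fold higher (adjusted p = 0.0117), and Nkd1 A_55_P2118694 was called higher (adjusted p = 0.0383) with no fold to give. Against E6.5, 3 probes were lower, Axin2 A_55_P2000783 at -4.94 ± 0.91 (adjusted p = 0.00321), Sp5 at -6.61 ± 2.13 (adjusted p = 0.0354) and Nkd1 A_55_P1967736 at -2.15 ± 0.62 (adjusted p = 0.0232). Against E7.5, 6 probes of 4 genes were lower: both of Axin2 (-5.14 ± 0.91 and -1.88 ± 0.49), Sp5 (-6.62 ± 2.13), Sp8 A_66_P138898 (-3.06 ± 0.74) and both of Nkd1 (-3.22 ± 0.62 and -1.71 ± 0.51). The shares of all probes called were 25.0%, 24.1% and 19.0% against E5.5, E6.5 and E7.5. The members' counts were 3, 3 and 6 of 14.

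The lines did not fall together. Sp5 was at 3.12 and 2.83 in Wt1, against 3.86 and 3.97 at E6.5, while the Wnt inhibitor lines were not above background. Axin2 A_55_P2000783 was at -1.76 and -1.98 in Wt1, between the -1.10 and -2.00 of E5.5, and not above background in the other lines. Of 21 further targets, 9 were lower and 3 higher in EpiSC lines than at E6.5, and the 8 fibroblast markers were all higher. With either array of the stage compared left out, the calls were lost for Sp5 against E6.5 and E7.5 (adjusted p 0.148 to 0.185), Nkd1 A_55_P1967736 against E6.5 (0.106 and 0.137), Axin2 A_55_P2000783 against E5.5 (0.0759 and 0.155), and Sp8, Axin2 A_66_P134405 and Nkd1 A_55_P2118694 against E7.5 (0.0732 to 0.162). Normexp also ended both of these Axin2 calls. In all, Sp5 lost its call in 6 of 30 alternatives against E6.5 and in 11 of 30 against E7.5, among them leaving out line 129Ba1, 129Ba2 or BNa17 and, against E7.5, any embryo array. Nkd1 A_55_P2118694 lost its call in 14 of 28 alternatives against E5.5 (0.0525 to 0.462), among them leaving out line 129C1 or BNa17, 1 array of 129C1, 129Ba1 or 129Ba2, or any embryo array, and in 10 of 29 against E7.5 (0.0503 to 0.18), among them leaving out line 129Ba1, 129Ba2 or BNa17, 1 array of 129C1 or 129Ba2, or either E7.5 array. The Rnf43 call against E5.5 was lost in 3 of 29, namely under normexp (0.0862) and without BNa17 replicate 2 (0.0697) or E5.5 replicate 1 (0.101). The Axin2 A_55_P2000783 calls against E6.5 and E7.5 held in all 30 alternatives. The EpiSC lines and the embryonic tissue lay on different slides, so that source and slide cannot be told apart.

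Among 15116 genes with a probe that both arrays of some group detected, those with the pattern most like each member over the 12 group means were looked up, as a description over groups that share arrays with the comparisons above. The r values include background readings. Both arrays were above background in 8 of the 12 groups for Sp5, in 5 for Axin2 A_55_P2000783, in 7 for Axin2 A_66_P134405 and in 4 for Lgr5. Closest to Sp5 were Grrp1 (r = 0.95), Tnfrsf19 (0.92) and Stard8 (0.92). Closest to Axin2 A_55_P2000783 were Evx1 (0.99), Slc15a2 (0.97) and Stard8 (0.96), so the 2 lists share Stard8, whereas those for the second Axin2 probe, Mrgprb4, Gal and Ctdsp1 (0.88 to 0.89), share no gene with either. For Lgr5 they were Kiz (0.94), Flt1 (0.93) and Nme5 (0.92). For Ascl2 they were Pga5 (0.89), Ptgds (0.88) and Sfrp5 (0.88), the last of which was also lower after IWP2. For Sp8 A_66_P138898 they were Pcdh18, Sh3bgrl and Gprin1 (each 0.97), and for Nkd1 A_55_P1967736 Adamts15 (0.94), Dguok (0.93) and Frat2 (0.93), a Gsk3-binding protein. Within the set, the pair of Tcf7 probes had the highest r (0.94), and the lowest, -0.70, was between Notum and Rnf43. Both values include background readings. Over only the groups where both probes were above background on both arrays, they were 0.49 (8 groups) and -0.29 (7 groups).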

How the data were processed

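RNA from 24 samples was hybridised to single-colour Agilent arrays (Cy3), 2 for each of 12 groups. The deposited scanner files hold intensity values from Agilent Feature Extraction 10.5.1.1, per the file headers; the authors' log2 value table was used as an alternative, and each of its columns correlated with its own array at r of at least 0.99997. Levels are log2 processed signals minus the array's 75th percentile. Control spots and flagged spots were left out. Probes were named through RefSeq accessions.

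Each comparison was fitted with limma 3.58.1 in R 4.3.3 over all probes that both arrays of some group detected (well above background), with Benjamini-Hochberg adjustment. Comparisons of lines used line means. A call needed an adjusted p below 0.05, at least 2-fold, and at least 1 array of either side above background. A lower bound sets the bright group's mean against the higher of the dim probe's signal and the lowest signal above background on each array. The fits were tested on simulated data, in which the spread between lines was set and not taken from the arrays. That spread was narrower than the one of Sp5, so fits of line means for such members are not covered. Members and gene lists were chosen with earlier results of these data known. All 14 member probes are described; other lists are given as counts with up to 4 called genes by size of difference. The normexp alternative (offset 50) used median signals. Promoters come from RefSeq (GRCm38.p6).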

Additional observations from a re-analysis of the deposited data

How the results depend on the processing

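Of 40 called member differences, 12 kept their call and direction in every alternative, and 31 of 114 uncalled ones were called in at least 1. The sign turned for 1 called difference, Sp8 A_66_P138898 after IWP2, at -0.402 against Wt1. The count of member probes called fell under normexp to 2 for 2i, 2 for E7.5 against E6.5, and 1 each for EpiSC lines against E5.5 and against mESC lines. A stricter filter on dim probes gave 1 for each of those EpiSC comparisons, and the second of them had 5 with no fold minimum and 1 with 1 probe per gene, which gave 2 for E7.5 against E6.5. Fitting only the arrays compared gave 3 for E6.5 against E5.5, 2 for IWP2 and 3 for Wt1 against 129C1. Wnt inhibitor lines had 5 against 129C1 alone and 8 against Wt1 alone, with arrays as replicates. The main count of 3 used line means, so the 5 and 8 differ from it in the replicates as well as in the reference. The cause was not tested.

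Leaving out single arrays or lines gave 1 to 4 member probes for the Wnt inhibitor lines (1 without 129Ba1, 129Ba2, BNa17 or BNa17 replicate 2), 4 to 4 for IWP2, 4 to 5 for Wt1 against 129C1, 5 to 6 for E6.5 against E5.5, 1 to 2 for E7.5 against E6.5, 3 to 4 for 2i, 0 to 0 for R1 against J1, 0 to 4 for EpiSC against mESC lines (0 without J1 or R1), and 1 to 5, 1 to 4 and 2 to 6 for EpiSC lines against E5.5, E6.5 and E7.5.

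Over all probes, the count called for the Wnt inhibitor lines ranged from 43 (without BNa17) to 3589 (Wt1 alone, arrays as replicates), main value 243 by line means. For IWP2 it ranged from 142 (only the arrays compared) to 3281 (against Wt1), main value 768. The count ranged from 1210 to 7568 for 2i, 1828 to 7988 for E7.5 against E6.5, 2651 to 11482, 2950 to 11251 and 2196 to 8369 for EpiSC lines against E5.5, E6.5 and E7.5, 2999 to 9389 against mESC lines and 1143 to 3998 for Wt1 against 129C1, in each case lowest under normexp and highest with no fold minimum. It ranged from 267 to 1527 for E6.5 against E5.5 and from 16 to 322 for R1 against J1, lowest with only the arrays compared.

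With the replicate number as a block, 4 member probes were called for 2i, 6 for E6.5 against E5.5, 3 for E7.5 against E6.5 (Axin2 A_66_P134405 missed at adjusted p = 0.0551), 4 for IWP2, 0 for R1 against J1 and 5 for Wt1 against 129C1. Deviations of same-numbered arrays correlated at -0.007 to 0.172. The labels do not say whether same-numbered arrays were handled together, and these low values cannot settle it. Probes near background limit Lgr5, Rnf43, Axin2 and the second probes of Nkd1 and Tcf7, whose differences shrink under normexp. Sp5 differences also shrank in some alternatives, to -1.72 for IWP2 and -3.04 for the Wnt inhibitor lines.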
